A study of Homo sapiens with 4 samples.

Results

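The cytosolic ribosomal protein genes were described in U2OS cells given a single-domain antibody (sdAb) against MN1 and in cells given a control sdAb. They were taken from the gene count table by symbol as the protein-coding RPL, RPLP, RPS and RPSA genes, without the RPS6K kinases and without 2 matches on chromosome Y. The rule found 84 of 58676 genes, 53 of the large (60S) subunit and 31 of the small (40S) subunit, and it used no measured value. FAU, RACK1 and RPS27L, whose names fall outside the rule, are given beside them. U2OS is an established human osteosarcoma line, a single-domain antibody is a fragment made of one antibody variable domain, and MN1 is a transcriptional coregulator. Per the labels, the anti-MN1 sdAb group (2 libraries) and the control sdAb group (2 libraries) were kept in the same serum-containing medium and differ in the antibody given. Dose, exposure time and delivery of the antibody are not stated in the labels. Nor do they say whether the libraries of a group were separate cultures, so the p-values reflect library-to-library spread that may be technical.

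Each cytosolic ribosome holds one copy of most of these proteins, so cells make them in matched amounts, and surplus unassembled ribosomal protein is degraded. Their mRNAs are among the most abundant in dividing cells. Most begin with a cytosine followed by an unbroken run of pyrimidines, the terminal oligopyrimidine (TOP) motif, through which mTOR and LARP1 set their translation and stability. Several members have a second expressed copy, a paralogue that can replace the common protein in some ribosomes or tissues, and almost all have left processed pseudogenes across the genome.

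The TOP motif was read from RefSeq transcription start windows on GRCh38.p14, which were matched by symbol for 67 of the 84 genes. A gene was counted where a listed start was a C followed by at least 4 pyrimidines. Of the 67 members, 47 (70.1%) had it, against 5.14% of all 27305 genes in that table and 6.33% of the protein-coding ones. Each line below runs from 20 bases before to 20 bases after the listed start, 5′ to 3′ on the gene's strand, with the pyrimidine run in capitals. The first 5 are members with higher counts in anti-MN1 libraries, and the next 3 have lower counts there. The last 4 are called members (2 higher, then 2 lower) whose listed start had no such run.
RPL35, chr9:124861938-124861977: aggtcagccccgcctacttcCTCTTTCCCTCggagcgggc
RPL26, chr17:8383174-8383213: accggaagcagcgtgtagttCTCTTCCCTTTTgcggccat
RPL39, chrX:119791611-119791650: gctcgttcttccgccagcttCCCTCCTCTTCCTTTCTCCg
RPL11, chr1:23691786-23691825: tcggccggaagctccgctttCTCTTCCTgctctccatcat
RPL12, chr9:127451387-127451426: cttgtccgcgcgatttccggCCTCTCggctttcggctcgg
RPLP0, chr12:120201092-120201131: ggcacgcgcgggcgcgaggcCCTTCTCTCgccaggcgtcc
RPLP1, chr15:69452798-69452837: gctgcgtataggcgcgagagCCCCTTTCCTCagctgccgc
RPS23, chr5:82278335-82278374: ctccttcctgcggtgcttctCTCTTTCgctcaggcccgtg
RPL26L1, chr5:172958709-172958748: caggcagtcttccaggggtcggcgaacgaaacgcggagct
RPL7L1, chr6:42879596-42879635: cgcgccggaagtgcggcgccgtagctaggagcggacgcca
RPL10L, chr14:46651762-46651801: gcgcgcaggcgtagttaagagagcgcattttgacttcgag
RPL36AL, chr14:49620607-49620646: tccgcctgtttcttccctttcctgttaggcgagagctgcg
The runs were 5 to 19 bases long over the 47 members, with a median of 8, and RPL39 had the longest. The RPL36AL window shows a pyrimidine stretch that begins before the listed start, so the count depends on where RefSeq places the start.

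Libraries held between 15740268 and 16816893 counts, so 0 counts in a library leave room for 0.174 to 0.194 CPM (counts relative to library size, TMM-scaled) (3 counts; counting error alone). The ribosomal protein genes held 4.37% and 4.47% of all counts in the anti-MN1 libraries, against 4.49% and 4.62% in the control libraries. Both anti-MN1 libraries were thus below both control libraries, by 0.138 percentage points on average, and the exact 2-sided permutation test gave 0.333, the smallest p that 2 against 2 libraries allow. Markers of the mesenchymal lineage were present (VIM, COL1A1, SPARC, RUNX2), while the osteoblast markers SP7 and IBSP had no count. The 10 mesenchymal and osteoblast markers summed to 649 and 657 CPM in anti-MN1 libraries, against 1167 and 1150 CPM in control libraries, and their part in the ribosomal protein values was not tested. The 9 markers of other cell types summed to between 5.04 and 8.16 CPM in the 4 libraries. In bulk RNA, fewer cells of a type and less RNA per cell cannot be told apart.

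Of the 84 members, 83 passed the low-count filter, and 25 were higher and 12 lower in anti-MN1 libraries at an adjusted p under 0.05 (edgeR's quasi-likelihood test, Benjamini-Hochberg over all 17524 genes tested). RPL3L, the striated-muscle paralogue of RPL3, was not tested, with 3 and 1 counts in anti-MN1 libraries and 5 and 8 counts in control libraries. These are 30.1% and 14.5% of members, against a background of 23.7% of all tested genes called higher and 21.6% lower. The median log2 fold change was 0.04 over members and -0.004 over all tested genes. Both anti-MN1 libraries lay above both control libraries for 35 of the 83 tested members and below them for 16, and in 32 the groups overlapped. The background was 6187 (35.3%) above and 6207 (35.4%) below of the 17524 genes tested.

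The direction of the small changes depended on the scaling. With upper-quartile factors 10 members were called higher and 33 lower, and with library totals alone 11 and 33. Of the called members 67.6% were higher with TMM scaling (trimmed mean of M values) and 23.3% with upper-quartile factors. Over all called genes these shares were 52.3% with TMM, 38.0% with upper-quartile factors and 39.0% with library totals. The member median was then -0.045 and -0.04, beside -0.089 and -0.083 for all genes. DESeq2 called 16 members higher and 4 lower, which is 80.0% higher, against 56.0% over all genes it called. Across the main test and all 15 alternatives, 9 members stayed higher (RPL11, RPL12, RPL26, RPL26L1, RPL35, RPL37, RPL39, RPL7L1 and RPS15) and 2 stayed lower (RPLP0 and RPS20).

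Fold changes of the abundant members were small. At a level of at least 100 CPM stood 67 members, of which 18 were higher and 10 lower. These 41.8% compare with 69.9% of the 2420 genes at that level, 50.7% higher and 19.1% lower. Only 3 of these 67 (4.48%) were called with a change of at least 1.2-fold, against 31.8% of genes at that level. The standard deviation of the log2 fold changes was 0.11 over these members and 0.284 over all genes at that level. A total of 9 members were called with a change of at least 1.2-fold, and 1, RPL26, with at least 1.5-fold.

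**Figure D1:**
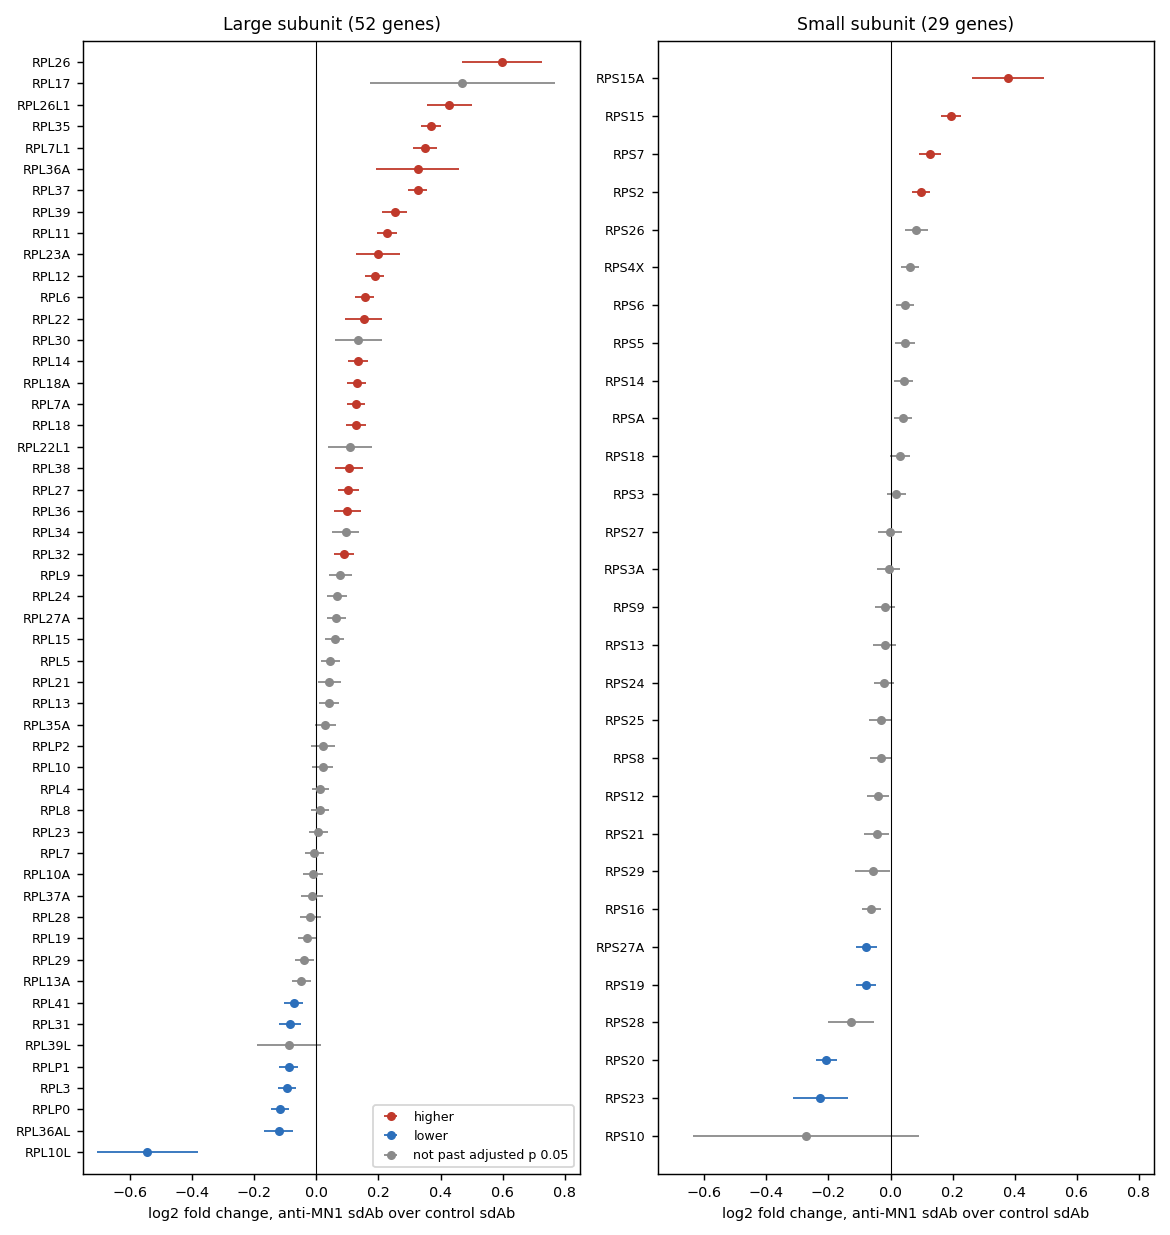
Log2 fold change of tested ribosomal protein genes, anti-MN1 sdAb over control sdAb, with the standard error as a bar, for 52 large-subunit and 29 small-subunit genes. Red and blue points are 24 higher and 11 lower genes with TMM scaling; most points lie close to 0, and RPL26 and RPL10L lie at the ends.

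Large-subunit genes accounted for 20 of the 25 higher members and 7 of the 12 lower ones, of 52 tested, with a median log2 fold change of 0.065. The 31 small-subunit genes gave 5 higher and 5 lower, with a median of -0.017. Thus 38.5% of large-subunit genes were higher and 13.5% lower, and 16.1% and 16.1% of small-subunit genes. Over all tested genes it was 23.7% and 21.6%. At 100 CPM or more, 35.7% of large-subunit and 12.0% of small-subunit genes were higher, against 50.7% of all genes there. The lower shares at that level were 14.3%, 16.0% and 19.1%. With upper-quartile factors the counts were 8 higher and 17 lower for the large subunit and 2 higher and 16 lower for the small subunit. Over all tested genes 17.5% were higher and 28.4% lower with those factors. A ratio within each library needs no scaling: large-subunit counts were 1.85 and 1.85 times small-subunit counts in anti-MN1 libraries, against 1.81 and 1.80 times in control libraries. Both anti-MN1 libraries were above both controls by 0.0453 on average, and the exact permutation p was 0.333, the smallest possible. Among members with under 20% of their sequence in other genes, tested or not, the ratio was 1.82 and 1.85 in anti-MN1 libraries and 1.73 and 1.78 in control libraries.

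The largest change among abundant members was that of RPL35, a protein at the rim of the nascent-chain exit tunnel where the signal recognition particle docks. RPL35 (chr9:124857880-124861981, minus strand) had 760 and 765 CPM in anti-MN1 libraries, against 592 and 589 CPM in control libraries. The groups were well apart, and the log2 fold change was 0.37 ± 0.03 (SE, adjusted p = 2.26e-23 by edgeR's quasi-likelihood test). RPL37, a zinc-binding protein that contacts the 5.8S rRNA, had 930 and 946 CPM in anti-MN1 libraries, against 751 and 745 CPM in control libraries. It was higher by 0.33 ± 0.03 on the log2 scale (adjusted p = 3.76e-20, edgeR). Of the 50-base windows of RPL37, 1.66% are found in other genes and of those of RPL35 35.7%, but the annotated RPL37 transcript is 7686 bases long and that of RPL35 455 bases. RPL39, a very short protein that lines the exit tunnel, had 229 and 245 CPM in anti-MN1 libraries, against 198 and 199 CPM in control libraries (log2 fold change 0.25 ± 0.04, adjusted p = 1.1e-08, edgeR).

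Around the exit tunnel, 1 of the 3 genes for tunnel-lining proteins was called. RPL4, whose extended loop narrows the tunnel, had 2011 and 2013 CPM in anti-MN1 libraries and 1975 and 2012 CPM in control libraries, a difference not past the test. The sign of RPL4 turned with scaling, to -0.072 with upper-quartile factors and -0.066 with library totals. RPL17, the other lining protein, had 3.07 and 3.17 CPM in anti-MN1 libraries and 2.36 and 2.14 CPM in control libraries, with an adjusted p of 0.195 (edgeR). Of the 5 rim proteins, RPL26, RPL35 and RPL23A were higher and RPL31 was lower (2 higher and 2 lower with upper-quartile factors or library totals). Of all tested genes 23.7% were higher and 21.6% lower with TMM scaling, 17.5% and 28.4% with upper-quartile factors, and 17.8% and 27.8% with library totals. RPL23A, which binds the signal recognition particle, had 56.9 and 52.8 CPM in anti-MN1 libraries, against 46.9 and 48.7 CPM in control libraries, and its call was lost under 6 of the 15 alternatives. RPL31 had 385 and 391 CPM in anti-MN1 libraries and 388 and 435 CPM in control libraries. These groups overlapped, and without the second control library the log2 fold change of RPL31 was 0.001 instead of -0.09.

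RPL11 and RPL5 carry the 5S rRNA into the large subunit, and when ribosome assembly fails the pair binds MDM2. RPL11 had 581 and 606 CPM in anti-MN1 libraries, against 500 and 513 CPM in control libraries (log2 fold change 0.23 ± 0.03, adjusted p = 3.03e-10, edgeR). RPL5 had 838 and 883 CPM in anti-MN1 libraries and 828 and 842 CPM in control libraries, with overlapping groups and an adjusted p of 0.239 (edgeR). The pair thus differed in call, but the difference between them was not tested.

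The stalk genes were split. RPL12 sits at the stalk base, RPLP0 is the scaffold, and RPLP1 and RPLP2 are the acidic tips that recruit elongation factors. RPL12 had 787 and 819 CPM in anti-MN1 libraries, against 707 and 702 CPM in control libraries (log2 fold change 0.19 ± 0.03, adjusted p = 4.22e-08, edgeR). RPLP0, used widely as a reference transcript, had 1521 and 1551 CPM in anti-MN1 libraries, against 1625 and 1709 CPM in control libraries. Its log2 fold change was -0.12 ± 0.03 (adjusted p = 0.000234, edgeR) and it was called lower under all 15 alternatives. RPLP1 had 911 and 946 CPM in anti-MN1 libraries, against 979 and 996 CPM in control libraries, and was called lower in 12 of 15 alternatives. RPLP2 had 267 and 278 CPM in anti-MN1 libraries and 254 and 282 CPM in control libraries, which overlap.

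**Figure D2:**
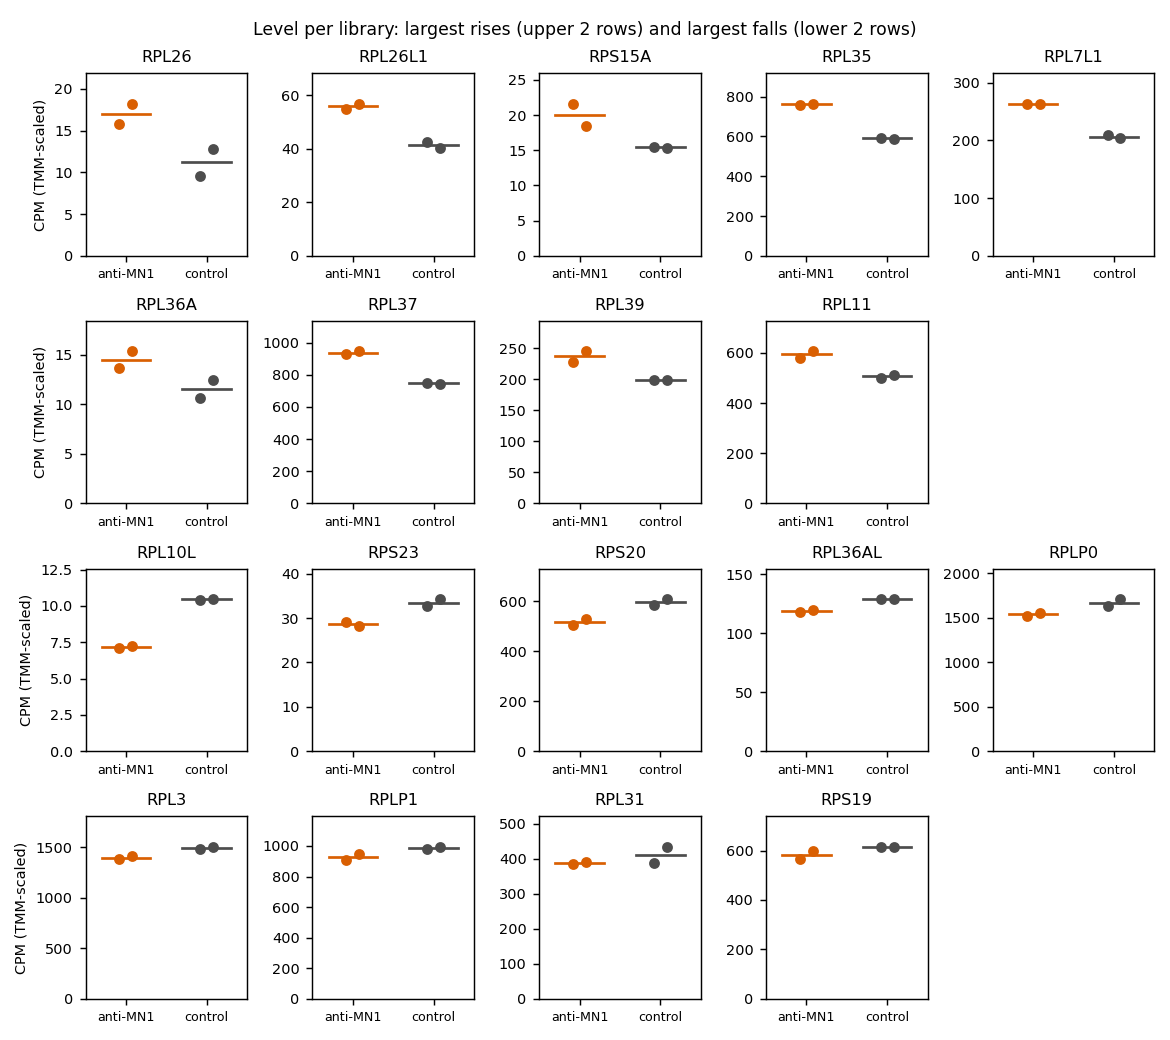
TMM-scaled CPM in each library (points) and group means (lines) for 9 of the 10 called members with the largest rise (upper 2 rows) and 9 of the 10 with the largest fall (lower 2 rows), each on its own axis from 0, anti-MN1 sdAb left of control sdAb. The groups do not overlap in these panels except for RPL31, and the gaps are widest relative to the level for RPL26 and RPL10L.

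At the tRNA sites 0 of the 3 listed genes were higher and 1 was lower, or 2 lower with upper-quartile factors or library totals. Of all tested genes 23.7% were higher and 21.6% lower with TMM scaling, and of those at 100 CPM or more 50.7% and 19.1%. All-gene shares were 17.5% and 28.4% with upper-quartile factors, and 17.8% and 27.8% with library totals. RPL3, which lies near the peptidyl transferase centre, had 1381 and 1415 CPM in anti-MN1 libraries, against 1481 and 1506 CPM in control libraries. It was lower by 0.10 on the log2 scale (-0.10 ± 0.03, adjusted p = 0.00364, edgeR), a call lost without the first anti-MN1 library (adjusted p = 0.177). RPL10 of the P site had 367 and 372 CPM in anti-MN1 libraries and 359 and 369 CPM in control libraries, and was not called. RPL10A of the L1 stalk had 589 and 579 CPM in anti-MN1 libraries and 596 and 582 CPM in control libraries, and was called lower with those 2 scalings but not with TMM.

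On the small subunit the clearest fall was that of RPS20, a protein of the head. RPS20 had 503 and 531 CPM in anti-MN1 libraries, against 583 and 609 CPM in control libraries (log2 fold change -0.21 ± 0.03, adjusted p = 1.25e-08, edgeR). The clearest rise was that of RPS15, whose tail reaches toward the decoding site. RPS15 had 477 and 502 CPM in anti-MN1 libraries, against 426 and 430 CPM in control libraries (log2 fold change 0.19 ± 0.03, adjusted p = 1.69e-07, edgeR). RPS23, at the decoding centre itself, had 29.1 and 28.2 CPM in anti-MN1 libraries, against 32.7 and 34.3 CPM in control libraries. Its groups did not overlap, but the adjusted p of 0.0299 (edgeR) was lost under 6 of the 15 alternatives, including each removal of a library.

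RPS19, the gene most often mutated in Diamond-Blackfan anaemia, had 567 and 598 CPM in anti-MN1 libraries, against 615 and 616 CPM in control libraries (log2 fold change -0.08 ± 0.03, adjusted p = 0.0329, edgeR). Its call was lost under 5 alternatives. RPS2, which with its neighbours forms the mRNA entry site, had 1899 and 1930 CPM in anti-MN1 libraries, against 1771 and 1808 CPM in control libraries. It was called higher (log2 fold change 0.10 ± 0.03, adjusted p = 0.0023, edgeR), a call lost under 4 alternatives, among them upper-quartile factors (0.012) and library totals (0.018).

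RPS26, at the mRNA exit, had 311 and 321 CPM in anti-MN1 libraries and 281 and 315 CPM in control libraries. RPS28, also at the exit, had 44.6 and 45.7 CPM in anti-MN1 libraries and 49.6 and 49.0 CPM in control libraries, and neither passed the test. Without the second control library RPS26 was called higher, by 0.17 on the log2 scale. In the beak, RPS27A, which is made as a fusion with ubiquitin, was called lower, with 445 and 456 CPM in anti-MN1 libraries and 460 and 490 CPM in control libraries. The RPS27A call was lost under 6 alternatives, DESeq2 among them. RPS12 had 352 and 345 CPM in anti-MN1 libraries and 347 and 371 CPM in control libraries. RPS10 had 1.60 and 1.68 CPM in anti-MN1 libraries and 2.17 and 1.80 CPM in control libraries, and neither of these beak genes was called.

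Of the 17 members listed as Diamond-Blackfan anaemia genes, 7 were higher and 1, RPS19, was lower, but with upper-quartile factors or library totals 3 were higher and 4 lower. The background was 23.7% of all tested genes higher and 21.6% lower with TMM scaling, and 17.5% higher and 28.4% lower with upper-quartile factors. Of 6 members with known roles outside the ribosome, 2 were higher, RPL11 and RPL22 (1 higher and 1 lower with either of those scalings). RPL22, which is needed for T-cell development in mice, had 76.1 and 78.0 CPM in anti-MN1 libraries, against 71.6 and 67.2 CPM in control libraries, and lost its call under 6 alternatives. RPL13A, which in myeloid cells joins a complex that silences inflammatory mRNAs, had 866 and 872 CPM in anti-MN1 libraries and 871 and 927 CPM in control libraries, and was not called, though it was called lower under 4 alternatives, upper-quartile scaling among them.

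RPL26, RPS15A and RPL36A had large fitted rises on low levels. RPL26 (chr17:8377516-8383250), of the tunnel rim, had 15.7 and 18.2 CPM in anti-MN1 libraries, against 9.56 and 12.8 CPM in control libraries. Its log2 fold change was 0.60 ± 0.13 (adjusted p = 3.95e-05, edgeR), and it was called higher under all 15 alternatives. RPS15A, of the small-subunit body, had 21.6 and 18.5 CPM in anti-MN1 libraries, against 15.5 and 15.3 CPM in control libraries (adjusted p = 0.00371, edgeR). Without the first anti-MN1 library its adjusted p was 0.13.

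Between 56.7% and 80.3% of the 50-base windows of these 3 transcripts also occur in other genes. With the counts of same-named pseudogenes added to each member, all 3 were still called higher, but RPL36A by 0.13 on the log2 scale instead of 0.33. Among all members, 56 had at least 20% of their windows in other genes, and 19 of these were higher and 5 lower (33.9% and 8.93%). Of the 27 tested members under 20%, 6 were higher and 7 lower (22.2% and 25.9%). The background was 23.7% of all tested genes higher and 21.6% lower. Levels per kilobase of the annotated principal transcript spread widely. RPS2, RPL41 and RPL7A were highest, at 1880, 1800 and 1646 CPM per kilobase over the 4 libraries, and RPL3L, RPS10 and RPL17 were lowest, at 0.118, 2.95 and 4.01. The annotated transcripts of RPL37 (7686 bases), RPL27A (4916), RPL37A (3647) and RPS23 (3437) are long for so small a protein, so that choice lowers their per-kilobase levels. Their shares of windows in other genes are taken over that length. RPS23 was also low before division by length, with means of 28.7 CPM in anti-MN1 and 33.5 CPM in control libraries.

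RPS10 and RPL17 had 83.0% and 90.3% of their windows in other genes. RPL7A had 1519 and 1545 CPM in anti-MN1 libraries, against 1402 and 1400 CPM in control libraries, and RPL41 had 803 and 843 CPM in anti-MN1 libraries, against 868 and 864 CPM in control libraries. RPL7A, a large-subunit core protein, was called higher except with upper-quartile factors and library totals. RPL41, the shortest ribosomal protein, was called lower, a call lost under 7 alternatives.

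Of the paralogues, 8 pairs were compared by the share of the pair's counts that fell on the copy with the suffix L or L1, which in RPL26L1 and RPL36AL was the more counted one, a ratio that needs no scaling. RPL7L1, a nucleolar relative of RPL7 found on large-subunit precursors, took 22.7% and 21.6% of its pair in anti-MN1 libraries, against 18.6% and 17.8% in control libraries. RPL7L1 itself had 263 and 263 CPM in anti-MN1 libraries, against 209 and 204 CPM in control libraries (log2 fold change 0.35 ± 0.04, adjusted p = 1.29e-15, edgeR). RPL7 had 897 and 954 CPM in anti-MN1 libraries and 918 and 943 CPM in control libraries, so the RPL7L1 share was higher while RPL7 overlapped between groups.

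RPL10L, an intronless copy of RPL10 known for its use in the testis, took 1.90% and 1.91% of its pair in anti-MN1 libraries, against 2.82% and 2.76% in control libraries. RPL10L (chr14:46651010-46651821) had 7.10 and 7.24 CPM in anti-MN1 libraries, against 10.4 and 10.5 CPM in control libraries. The libraries of a group nearly coincided, and the log2 fold change was -0.54 ± 0.16 (adjusted p = 0.00295, edgeR). With DESeq2 the adjusted p was 0.0547. Only 0.131% of the RPL10L windows occur in other genes.

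RPL39L took 8.69% and 8.61% of its pair in anti-MN1 libraries, against 11.3% and 10.1% in control libraries. RPL39L had 21.8 and 23.1 CPM in anti-MN1 libraries and 25.2 and 22.5 CPM in control libraries, with overlapping groups, so the lower share went with higher RPL39. The 2 coding sequences are shown because they differ at 8 of 153 bases, given in capitals.
RPL39L, coding sequence on chromosome 3: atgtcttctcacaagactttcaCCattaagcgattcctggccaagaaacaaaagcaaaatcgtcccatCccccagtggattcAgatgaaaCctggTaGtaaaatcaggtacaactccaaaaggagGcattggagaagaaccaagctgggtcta
RPL39, coding sequence on chromosome X: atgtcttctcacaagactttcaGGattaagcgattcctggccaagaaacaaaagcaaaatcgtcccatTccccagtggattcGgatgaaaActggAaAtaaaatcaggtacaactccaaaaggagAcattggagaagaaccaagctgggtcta
These sequences come from GENCODE release 29 transcripts. No 50-base window of one coding sequence occurs in the other.

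RPL36AL, a close copy of RPL36A, took 89.6% and 88.6% of its pair in anti-MN1 libraries, against 92.4% and 91.2% in control libraries. RPL36AL had 118 and 119 CPM in anti-MN1 libraries, against 129 and 129 CPM in control libraries (log2 fold change -0.12 ± 0.05, adjusted p = 0.0265, edgeR), a call lost under 6 alternatives. RPL36A had 13.7 and 15.4 CPM in anti-MN1 libraries, against 10.6 and 12.5 CPM in control libraries (log2 fold change 0.33 ± 0.13, adjusted p = 0.0352, edgeR), a call also lost under 6 alternatives. The processed pseudogene RPL36AP37 on chromosome 11 is identical to RPL36A over all 318 coding bases. RPL36AP37 was counted at 1162 and 1226 in anti-MN1 libraries and 1159 and 1217 in control libraries, so counts for RPL36A and RPL36AP37 cannot be told apart by sequence over the coding region. Pseudogenes named after RPL36A took 84.9% and 84.1% of the combined counts in anti-MN1 libraries, against 87.6% and 85.4% in control libraries.

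RPL26L1 took 77.7% and 75.8% of its pair in anti-MN1 libraries and 81.7% and 76.0% in control libraries. RPL26L1 had 54.9 and 56.9 CPM in anti-MN1 libraries, against 42.6 and 40.5 CPM in control libraries (log2 fold change 0.43 ± 0.07, adjusted p = 1.23e-07, edgeR). Both copies of this pair were thus higher, with RPL26 given above. RPL26 has low counts and 62.7% of its windows in other genes. RPL26L1 has 52.5% of its windows in pseudogenes, but none is named after it, so adding pseudogene counts added none to RPL26L1. The part of these limits in the share was not tested. RPL22L1 took 40.9% and 42.3% of its pair in anti-MN1 libraries and 40.6% and 44.2% in control libraries, and RPL22L1 had 52.7 and 57.3 CPM in anti-MN1 libraries and 48.9 and 53.1 CPM in control libraries. RPS27L, a close copy of RPS27, took 23.0% and 24.8% of its pair in anti-MN1 libraries and 25.5% and 23.9% in control libraries. In both pairs the groups overlapped. RPS27 had 255 and 261 CPM in anti-MN1 libraries and 254 and 262 CPM in control libraries.

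RPL3L took at most 0.0307% of the RPL3 pair in any library. For all 8 pairs the exact 2-sided permutation test gave 0.333 or more, with 0.333 the smallest possible, so no share could pass a threshold. Coding identity within the pairs ran from 52.9% for RPL7L1 with RPL7 to 94.8% for RPL39L with RPL39.

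**Figure D3:**
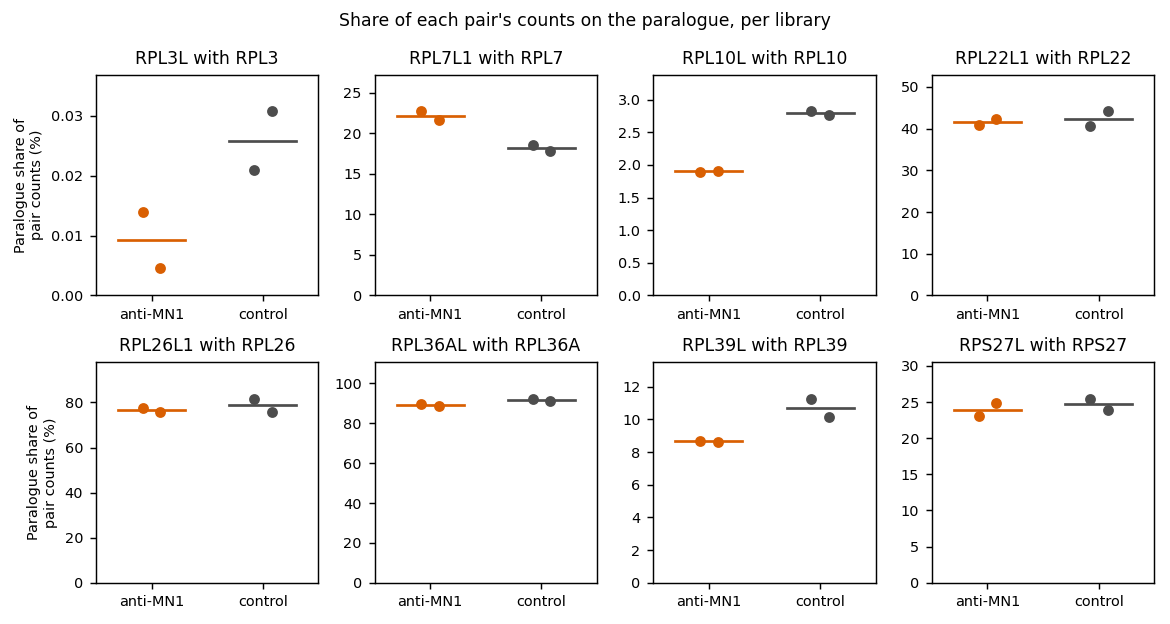
Share of each pair's counts that fell on the paralogue, in percent, per library (points) with group means (lines), anti-MN1 sdAb left of control sdAb, each pair on its own axis from 0. The groups are apart for RPL7L1, RPL10L, RPL36AL, RPL39L and the very rare RPL3L, and overlap for RPL22L1, RPL26L1 and RPS27L.

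Reads were also counted on 1599 pseudogenes named after members, of which 993 had no count. Together they held 4.74 and 4.74 counts for every 100 ribosomal protein counts in anti-MN1 libraries, against 4.76 and 4.74 in control libraries. Their share of all counts was 0.207% and 0.212% in anti-MN1 libraries and 0.214% and 0.219% in control libraries (exact permutation p = 0.333). The 5 pseudogenes with the most counts, RPS2P5, RPS28P7, RPL7P1, RPSAP15 and RPL13AP5, held 41.1% of pseudogene counts, and none was called. RPS2P5 had 380 and 395 CPM in anti-MN1 libraries and 377 and 379 CPM in control libraries, whereas RPS2 was called higher.

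The counts of 4 members were below those of their own pseudogenes. Pseudogene counts were 2162% of those of RPL17, 587% of those of RPL36A, 293% of those of RPS28 and 221% of those of RPS10. RPL17 and RPS10 also share 32.7% and 39.4% of their exonic bases with another gene on the same strand. Of the 98 pseudogenes tested, 7 were higher and 8 lower, 15.3% called against 45.3% of all genes. When pseudogene counts were added to their members, RPL23A lost its call (adjusted p = 0.0801) and RPL17 gained one (adjusted p = 0.0381).

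**Figure D4:**
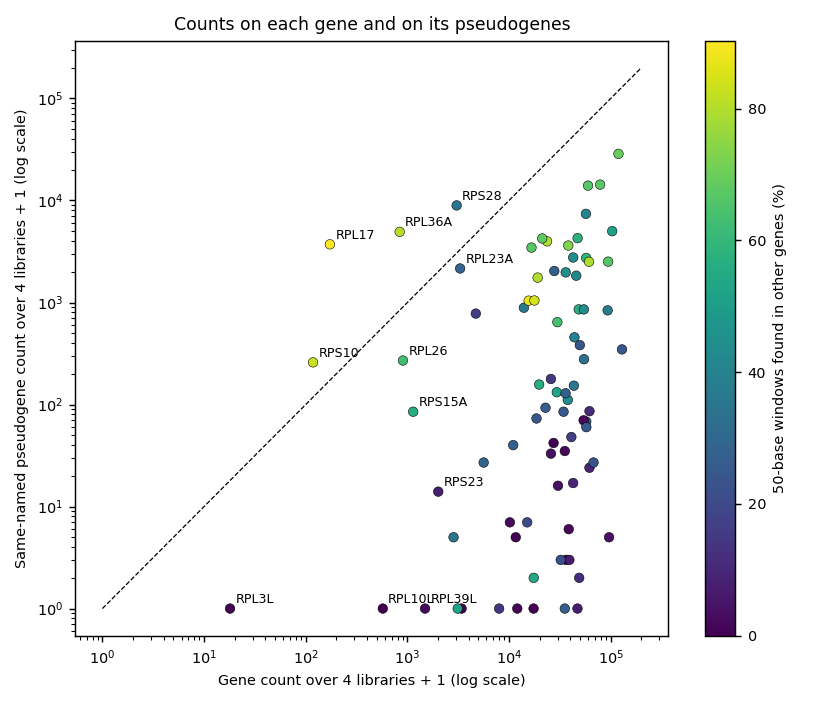
Total count of each of 82 members over the 4 libraries against the total of its same-named pseudogenes, both plus 1 and on log axes, coloured by the percentage of 50-base windows of the transcript found in other genes. RPL17, RPL36A, RPS28 and RPS10 lie above the dashed line of equality, and 10 members, RPL3L, RPL10L and RPL39L among them, have no pseudogene count.

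The chromosomal surroundings were compared because the members are scattered over the genome. For each member the median log2 fold change of the other tested genes within 5 Mb was taken, and across the 83 members the Spearman correlation with the member's own log2 fold change was 0.48. This is a description: all values come from the same 4 libraries and neighbouring members share genes. RPL35, RPL37, RPL39 and RPL12 lay among neighbours with medians of 0.20, 0.19, 0.24 and 0.16. RPL3 lay among neighbours at -0.15 and RPL10L among neighbours at -0.14. RPL7L1 (-0.03), RPL26L1 (0.03) and RPS20 (0.06) had neighbours near 0 or of the other sign. On chromosome 9 the 4 members had a median of 0.16 and the 692 other tested genes 0.09, and 3 of the 4 were called higher. On chromosome 17 it was 0.11 for 6 members, 4 of them higher, and -0.05 for the 1056 others. Over all tested genes 23.7% were called higher. Other chromosomes differed: 0 of the 5 members on chromosome 11 were called, and on chromosome 14 0 of 3 were higher and 2 lower. The Spearman correlation with the share of windows in other genes was 0.23, with the level per kilobase -0.17 and with transcript length -0.08.

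**Figure D5:**
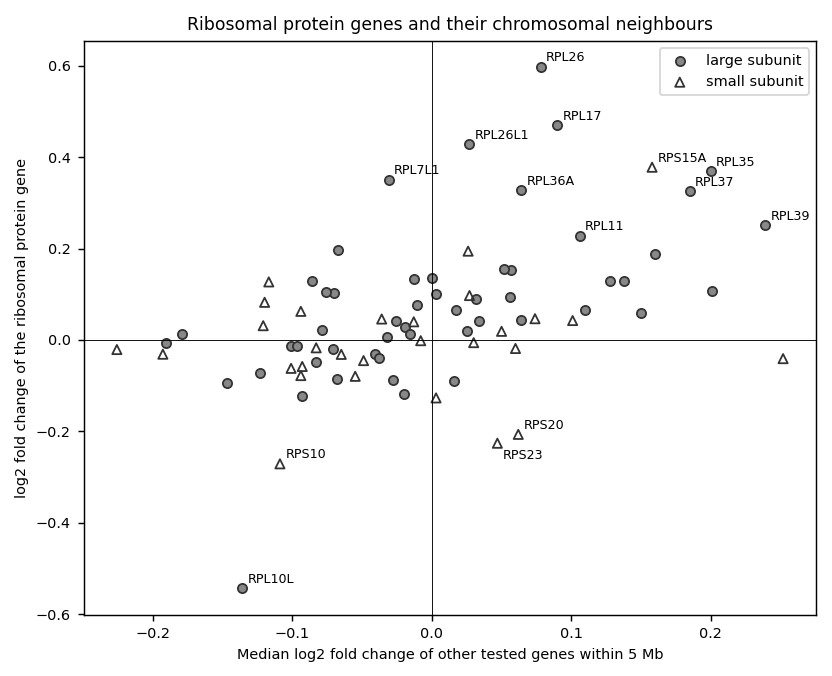
Log2 fold change of members, anti-MN1 sdAb over control sdAb, against the median log2 fold change of the other tested genes within 5 Mb, for 81 members, with labels where the member's change exceeds 0.2 in size. The points rise from left to right (Spearman correlation 0.48 over all 83 tested members), and RPL26, RPL26L1 and RPL7L1 lie far above their neighbours.

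By call, the TOP motif was present in 12 of 19 matched members called higher, 7 of 10 called lower and 28 of 38 not called, and in 29 of 43 large-subunit and 18 of 24 small-subunit members. In the 300-base window around the start, on both strands, the ETS and GABP motif CCGGAAG occurred in 34.3% of members, 12.2% of all genes and 16.7% of protein-coding ones. The SP1 motif GGGCGG occurred in 58.2% of members, above the 48.3% of all genes and below the 65.1% of protein-coding ones. In the same order, the YY1 motif AAGATGG occurred in 13.4%, 7.11% and 7.95%, TATAAA in 10.4%, 14.0% and 12.4%, and CACGTG in 7.46%, 8.77% and 10.9%. The 250 bases before the listed starts of RPL35 and RPLP0 are shown, the first as the member with the smallest p and the other as a member called lower under every alternative, with GGGCGG or TATAAA in capitals.
RPL35, chr9:124861958-124862207: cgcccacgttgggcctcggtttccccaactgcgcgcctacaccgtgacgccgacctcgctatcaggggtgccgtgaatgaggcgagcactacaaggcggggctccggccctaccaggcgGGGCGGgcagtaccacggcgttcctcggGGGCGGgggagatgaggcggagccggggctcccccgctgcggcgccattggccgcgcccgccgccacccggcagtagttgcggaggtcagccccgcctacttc
RPLP0, chr12:120201112-120201361: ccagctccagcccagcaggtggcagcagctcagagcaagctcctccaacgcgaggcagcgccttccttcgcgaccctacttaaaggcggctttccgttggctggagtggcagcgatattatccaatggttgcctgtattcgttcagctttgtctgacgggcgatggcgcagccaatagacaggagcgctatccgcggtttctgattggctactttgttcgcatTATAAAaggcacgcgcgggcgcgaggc
A match is only a description of these letters. Of 5 factors listed for these promoters 1 was higher and 1 lower, or 1 and 2 with upper-quartile factors, library totals or a minimum count of 50. SP1 was lower, with 162 and 162 CPM in anti-MN1 libraries, against 192 and 191 CPM in control libraries (log2 fold change -0.24 ± 0.04, adjusted p = 1.61e-07, edgeR). YY1 was higher, with 146 and 148 CPM in anti-MN1 libraries, against 129 and 127 CPM in control libraries. GABPB1 had 31.2 and 29.3 CPM in anti-MN1 libraries and 25.6 and 27.6 CPM in control libraries, not past the test (adjusted p = 0.0989, edgeR).

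Of the ribosome components outside the rule, FAU, made as a ubiquitin-like fusion that releases a small-subunit protein, had 35.1 and 31.7 CPM in anti-MN1 libraries, against 26.3 and 28.1 CPM in control libraries. It was called higher, a call lost under 4 alternatives, upper-quartile scaling among them. RACK1 and RPS27L were not called with TMM scaling.

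Dedicated chaperones hold newly made ribosomal proteins soluble and bring them to the nucleus. Of 8 such genes 7 were higher and 0 lower with TMM scaling, 4 and 0 with upper-quartile factors or library totals, and 3 and 0 with DESeq2. Over all tested genes 23.7% were higher with TMM scaling, 17.5% with upper-quartile factors, 17.8% with library totals and 17.0% with DESeq2. The chaperone genes had a median log2 fold change of 0.369, beside 0.04 over the ribosomal protein genes. GRWD1, the chaperone of RPL3, had 152 and 150 CPM in anti-MN1 libraries, against 108 and 93.0 CPM in control libraries (log2 fold change 0.59 ± 0.05, adjusted p = 3.47e-22, edgeR). BCCIP, which serves RPL23, had 138 and 139 CPM in anti-MN1 libraries, against 103 and 108 CPM in control libraries. LTV1, which holds RPS3 on small-subunit precursors, had 20.6 and 21.1 CPM in anti-MN1 libraries, against 16.0 and 15.4 CPM in control libraries. LTV1 shares 34.8% of its exonic bases with other genes on the same strand. In these 3 genes every anti-MN1 library lay above every control library, and RPS19BP1 was the list's member that did not pass the test.

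Genes that act on TOP mRNAs gave 6 higher and 3 lower of 13 with TMM scaling (46.2% and 23.1%). With upper-quartile factors or library totals these counts were 5 and 4. Over all tested genes 23.7% were higher and 21.6% lower with TMM scaling, and 50.7% and 19.1% of those at 100 CPM or more. All-gene shares were 17.5% and 28.4% with upper-quartile factors, and 17.8% and 27.8% with library totals. LARP1, which binds the cap and the pyrimidine run, had 614 and 599 CPM in anti-MN1 libraries, against 500 and 473 CPM in control libraries (log2 fold change 0.32 ± 0.03, adjusted p = 1.8e-17, edgeR). CNBP, a zinc-finger protein that binds the 5′ ends of such mRNAs, had 489 and 484 CPM in anti-MN1 libraries, against 367 and 372 CPM in control libraries. LARP4 had 180 and 191 CPM in anti-MN1 libraries, against 141 and 129 CPM in control libraries. The lower genes were TIA1, EIF4EBP2 and RPS6KB1.

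Other TOP mRNAs, which encode translation factors and related proteins, gave 3 higher and 3 lower of 14 tested (21.4% each), with a median of 0.004. These shares were near the 23.7% and 21.6% of all tested genes. However, all 14 exceeded 100 CPM in every library, and among genes that abundant the TMM calls were 50.7% up and 19.1% down. Against genes of like level, the list thus had a smaller higher share and a similar lower share. With upper-quartile factors or library totals 2 genes of the list were higher and 7 lower. All-gene shares were then 17.5% higher and 28.4% lower with upper-quartile factors, and 17.8% and 27.8% with library totals. NPM1, a nucleolar protein of ribosome assembly, had 1977 and 2018 CPM in anti-MN1 libraries, against 1568 and 1585 CPM in control libraries. EEF1D had 201 and 187 CPM in anti-MN1 libraries, against 170 and 168 CPM in control libraries, and was higher. EIF3L had 170 and 161 CPM in anti-MN1 libraries, against 196 and 196 CPM in control libraries, and was lower. EEF1G, the remaining gene of the list, was listed at 0 in every library, and 99.9% of its exonic bases are shared with another gene on the same strand.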

How the data were processed

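RNA from 4 U2OS libraries was sequenced, 2 given the anti-MN1 sdAb and 2 the control sdAb. The authors deposited whole-number read counts per Ensembl gene with no normalization, as the values show. Bowtie2, HTSeq and the build hg38 (GRCh38) are named per the submitters' processing notes, while versions, annotation release and strandedness are not given here in any label or header. Without strand, overlapping genes on either strand cannot be told apart. All 58676 identifiers were found in GENCODE release 29 and 58207 had a current symbol.

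Counts were tested in R 4.3.3 with edgeR 4.0.16: filterByExpr at a minimum count of 10 left 17524 genes, libraries were scaled by TMM (factors 0.971 to 1.03), and a robust quasi-likelihood fit compared the groups, 2-sided, with no covariate. The median prior degrees of freedom were 209, so with 2 libraries per group the p-values rest mostly on the spread over all genes. Levels are TMM-scaled CPM, each standard error was derived from the log2 fold change and its F statistic, and the script was tested on simulated data. Shares and ratios were compared by exact permutation. Shared sequence was measured in 50-base windows of the principal GENCODE transcript, and start windows came from RefSeq.

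Alternatives were other scalings, filters, DESeq2 1.42.0, limma-voom (limma 3.58.1), a replicate block, leaving out each library and adding pseudogene counts. A fit without robust spread was added after seeing the data. Whether the replicate numbers pair libraries is not known. Deviations from group means correlated at -0.00308 between libraries of the same number. With 2 libraries per group the deviations mirror each other, so this is a single value and cannot decide the question. Named were both genes of each paralogue pair, the 10 largest rises and 10 largest falls among called members, the 3 highest and 3 lowest levels per length, up to 3 genes with the smallest p from each list, and the 5 pseudogenes with the most counts. Results for some genes are not reported here, and the plots leave out 2 members. Other names were added after their values were seen. The members and lists were chosen with earlier results of these data known.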

Additional observations from a re-analysis of the deposited data

How the results depend on the processing

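Of the 15 alternatives, upper-quartile factors gave 10 members higher and 33 lower (large subunit 8 and 17, small subunit 2 and 16) with a median of -0.045, and library totals gave 11 and 33 (9 and 17, 2 and 16) with a median of -0.04. Both turned RPL4 round (-0.072 and -0.066). DESeq2 called 16 members higher and 4 lower (13 and 3, then 3 and 1), and 2338 genes lower in all. With no filter on low counts 4 members were lower (3 large, 1 small). Leaving out a library gave 18 to 28 members higher and 3 to 8 lower. For the large subunit that was 15 to 22 higher and 2 to 6 lower, and for the small subunit 3 to 6 higher and 1 to 3 lower. RPL31 ran from -0.161 without the first control library to 0.001 without the second. With a replicate block 28 members were higher and 12 lower, and RPS26 gained a call, but whether the numbers pair the libraries is not known. The difference in the large-to-small ratio was 0.083 among members with little shared sequence. The cause of these shifts was not tested. Leave-one-out fits leave a lone library that is assumed to vary like the others. Members below 20 CPM (8 genes) rest on few counts, and 2 libraries per group cannot pass a permutation threshold.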

Other observations

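Some pseudogenes of low level moved more than the genes they derive from, and they are named here after their values were seen. RPL13AP20 on chromosome 12 had 10.2 and 9.95 CPM in anti-MN1 libraries, against 5.77 and 5.50 CPM in control libraries (log2 fold change 0.84 ± 0.17, adjusted p = 1.21e-05, edgeR). RPL7AP45 on chromosome 9 had 4.41 and 4.39 CPM in anti-MN1 libraries, against 1.68 and 2.14 CPM in control libraries (adjusted p = 0.000147, edgeR). RPLP0P2 on chromosome 11 had 10.2 and 11.5 CPM in anti-MN1 libraries, against 6.08 and 7.53 CPM in control libraries, while its parent RPLP0 was lower.

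RPSAP52, a transcribed pseudogene of RPSA on chromosome 12, had 4.86 and 4.78 CPM in anti-MN1 libraries, against 10.1 and 9.09 CPM in control libraries (log2 fold change -0.99 ± 0.18, adjusted p = 9.17e-07, edgeR). RPSA itself, a small-subunit protein known also as a laminin receptor, had 1236 and 1240 CPM in anti-MN1 libraries and 1192 and 1215 CPM in control libraries and was not called. RPLP0P6 on chromosome 2 had 61.3 and 59.8 CPM in anti-MN1 libraries, against 67.4 and 70.2 CPM in control libraries, and was lower like RPLP0. Transcripts of the mitochondrial chromosome, which encodes no ribosomal protein, took 3.40% and 3.49% of counts in anti-MN1 libraries, against 4.45% and 4.31% in control libraries (exact permutation p = 0.333, the smallest possible).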
